A study of Homo sapiens with 9 samples.

Results

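The 59 genes described here encode the machinery of mitosis: the kinases and cyclins that start it, the spindle and its motors, the kinetochores that tie chromosomes to spindle microtubules, the checkpoint and the degradation system that time chromosome separation, the condensins that compact chromosomes and the proteins that pinch the daughter cells apart. They were listed by gene symbol, and a gene was kept where at least 10 counts were found in at least 3 libraries. All 59 of the 59 symbols met this condition, among 16030 genes tested and 63187 genes in the count table. RNA was sequenced from BEAS-2B cells in 9 libraries, 3 for each of 3 conditions. Control cells were left untreated, PG/VG cells received aerosol condensate of the carrier liquid made of propylene glycol and vegetable glycerin, and EC cells received condensate of a Virginia tobacco flavored liquid with 18 mg/mL nicotine, each condensate at 2% (v/v) for 24 h. Replicates carry the numbers 2, 3 and 4, which the sample labels also give as the batch.

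BEAS-2B is 1 human bronchial epithelial cell line, immortalized with a hybrid of adenovirus and SV40, whose large T antigen binds the retinoblastoma protein, so its division is not that of the airway lining. Of 15 epithelial markers, 10 could be tested. KRT7, KRT8 and KRT18 were at 860, 1058 and 546 CPM (counts scaled to the same total in every library) in the control, EPCAM and CDH1 were at 1.20 and 0.684 CPM, and KRT5, KRT14, TP63, GRHL2 and ESRP1 did not reach the count filter. Of 10 mesenchymal markers, 8 were tested, led by FN1 at 4791 CPM and VIM at 1068 CPM. Their sum lay between 4964 and 6873 CPM in the control, 4552 and 6581 CPM in PG/VG and 3480 and 5360 CPM in EC, while the epithelial markers summed to between 1829 and 3028, 1775 and 2899, and 1546 and 2531 CPM. Both sums were lower in EC, and also in PG/VG, than in the control of the same batch in all 3 batches. Among the 10 epithelial markers, KRT7, KRT8 and KRT18, which carry most of the sum, fell in EC vs. control and KRT17 rose, while the median log2 fold change was 0.27 with 6 above zero. Of the 8 mesenchymal markers 1 rose and 2 fell, with a median of −0.04. Leukocyte and endothelial markers summed to at most 13.6 CPM in any library. The counts assigned to genes ranged from 16168260 to 17882770 in the control, from 18427225 to 24882516 in PG/VG and from 19318218 to 24917838 in EC, so every control library was shallower than every treated one. Counts thinned to the smallest total gave 15 of the 59 genes with an adjusted p under 0.05 in EC vs. control, next to 14 in the full counts given below. What part the marker sums have in the differences was not tested.

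Most mitotic genes are transcribed late in the cell cycle. As background, their promoters often carry a cell cycle genes homology region (CHR) close to the start of transcription, and CCAAT boxes a little farther upstream. The CHR recruits the MuvB proteins, which as part of the DREAM complex keep such genes silent in resting cells and, joined by MYBL2 and FOXM1, turn them on in late S phase and G2. Genes of DNA replication carry E2F motifs more often and are switched on earlier. Many of the proteins are destroyed as mitosis ends.

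The promoter windows of RefSeq, 300 bases from 250 before to 50 after the start on GRCh38.p14, were available for 51 of the 59 genes and were searched on both strands for the letters TTTGAA and TTCGAA (CHR), CCAAT, and TTCGCGC and TTGGCGC (E2F). No motif contains another, and a match is only a match of letters. A CHR match was found in 37 of the 51 windows, or 72.5%, against 11.2% of the 11426 windows of all genes tested and 16.6% of all 27305 windows. For CCAAT the shares were 74.5%, 36.0% and 35.7%, and both motifs together stood in 58.8% of the 51 windows, in 4.67% of those of genes tested and in 6.58% of all. In 88 windows of other mitotic genes, a list described below, the shares were 45.5% for the CHR, 54.5% for CCAAT, 28.4% for both and 17.0% for E2F. E2F letters were in 13.7% of the 51 windows and in 37.8% of the windows of 37 S phase genes, of which 5.41% had a CHR match. The median position of the CHR matches was 23 bases upstream of the start and that of the CCAAT matches 73 bases upstream. Of the genes called lower in EC vs. control, described below, 9 of the 10 with a window held a CHR match, and of the genes not called 28 of 41 did.

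**Figure D1:**
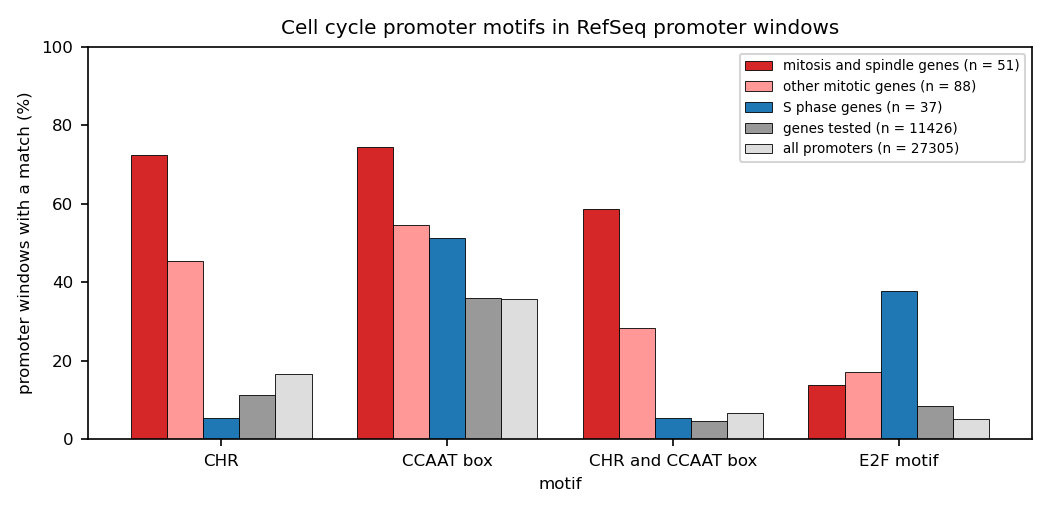
Percentage of RefSeq promoter windows of 300 bases (y axis) that hold each motif (x axis) in 5 gene sets. The mitosis and spindle genes, in red, reach 72.5% for the CHR and 58.8% for CHR and CCAAT together, while the S phase genes, in blue, have the highest bar for the E2F motif, at 37.8%.

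Of these windows, 6 are printed to show where the motifs lie in genes that recur below, each as the 100 bases before the RefSeq start on the coding strand. Capitals mark CHR letters (TTTGAA, or TTCAAA where the match is on the other strand) and CCAAT boxes (CCAAT or ATTGG). They are PLK1 at chr16:23678789-23678888 (plus strand), KIF18A at chr11:28108157-28108256 (minus strand), KIF23 at chr15:69414249-69414348 (plus strand), INCENP at chr11:62123911-62124010 (plus strand), KIF11 at chr10:92593030-92593129 (plus strand) and CCNB1 at chr5:69167050-69167149 (plus strand), all on GRCh38.p14.
PLK1: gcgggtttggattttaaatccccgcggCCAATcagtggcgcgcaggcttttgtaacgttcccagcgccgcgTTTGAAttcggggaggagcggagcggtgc
KIF18A: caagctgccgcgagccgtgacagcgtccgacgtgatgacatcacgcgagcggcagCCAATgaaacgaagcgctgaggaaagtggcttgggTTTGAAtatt
KIF23: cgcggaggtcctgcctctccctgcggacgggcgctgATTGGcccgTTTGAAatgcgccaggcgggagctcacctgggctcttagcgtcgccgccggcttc
INCENP: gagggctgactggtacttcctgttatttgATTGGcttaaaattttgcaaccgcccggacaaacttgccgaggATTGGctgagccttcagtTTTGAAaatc
KIF11: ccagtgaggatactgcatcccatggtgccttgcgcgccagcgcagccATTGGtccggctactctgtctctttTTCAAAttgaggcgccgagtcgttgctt
CCNB1: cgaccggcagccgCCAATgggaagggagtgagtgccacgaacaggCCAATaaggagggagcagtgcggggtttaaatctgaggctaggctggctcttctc
In PLK1, KIF18A, KIF23, INCENP and KIF11 a CHR match lies downstream of a CCAAT box, and the CCNB1 stretch shown holds a pair of CCAAT boxes and none of the searched CHR letters.

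Scaled by exon length, the levels of the mitotic genes in untreated cells spread widely, with a median of 34.4 RPKM (CPM divided by the exon length in kilobases). TPX2, a spindle assembly factor that activates Aurora A, was the most abundant at 155 RPKM. UBE2C, the ubiquitin-conjugating enzyme of the anaphase-promoting complex, followed at 138 RPKM and CCNB1, the cyclin B that activates CDK1, at 129 RPKM. The lowest were NUSAP1 at 0.257, PRC1 at 0.716 and SGO1 at 6.60 RPKM, which respectively bundle spindle microtubules, cross-link the midzone and protect centromeric cohesin. In NUSAP1, 86.8% of the exon length overlaps other annotated genes, in PRC1 61.9%, in NCAPG 33.7%, in SMC4 22.0% and in PLK1 12.8%, and the authors left out reads that overlap more than 1 gene. NUSAP1 had 13 to 20 counts per library and PRC1 55 to 106, while every other gene of the list had at least 402 in each library.

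In EC vs. control, the mitotic genes were lower as a group. Of the 59 genes, 54 had a log2 fold change (LFC) below zero, and 14 fell with an adjusted p under 0.05 in edgeR's quasi-likelihood test, adjusted over all genes by Benjamini-Hochberg, while none rose. Across all genes tested, 13.5% passed this test, 8.07% in the higher and 5.38% in the lower direction, next to 14 of 59 (23.7%) among the mitotic genes. Without adjustment, 27 of the 59 had a p under 0.05, next to 27.4% of all genes. The median LFC was −0.16, a fold of 0.896, against 0.0078 over all genes tested. The changes were small, with folds between 0.785 and 0.858 among the 14. In this bulk RNA, fewer cells in G2 and mitosis and less of these transcripts per cell cannot be told apart.

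The same direction was seen in each batch, with median log2 differences of −0.11, −0.092 and −0.26 in batches 2, 3 and 4. The difference in batch 4 was the largest of the 3. In all 3 batches 39 genes were lower and 1 was higher. The CPM of the 3 EC libraries lay below that of every control library for 23 of the genes and above it for none, and across all genes tested such separation was found for 7.42% in the lower and 9.83% in the higher direction. Together the 59 genes took 1.04% ± 0.0300 (SD, n = 3) of the counts in the control, 1.10% ± 0.0516 in PG/VG and 0.973% ± 0.0298 in EC.

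**Figure D2:**
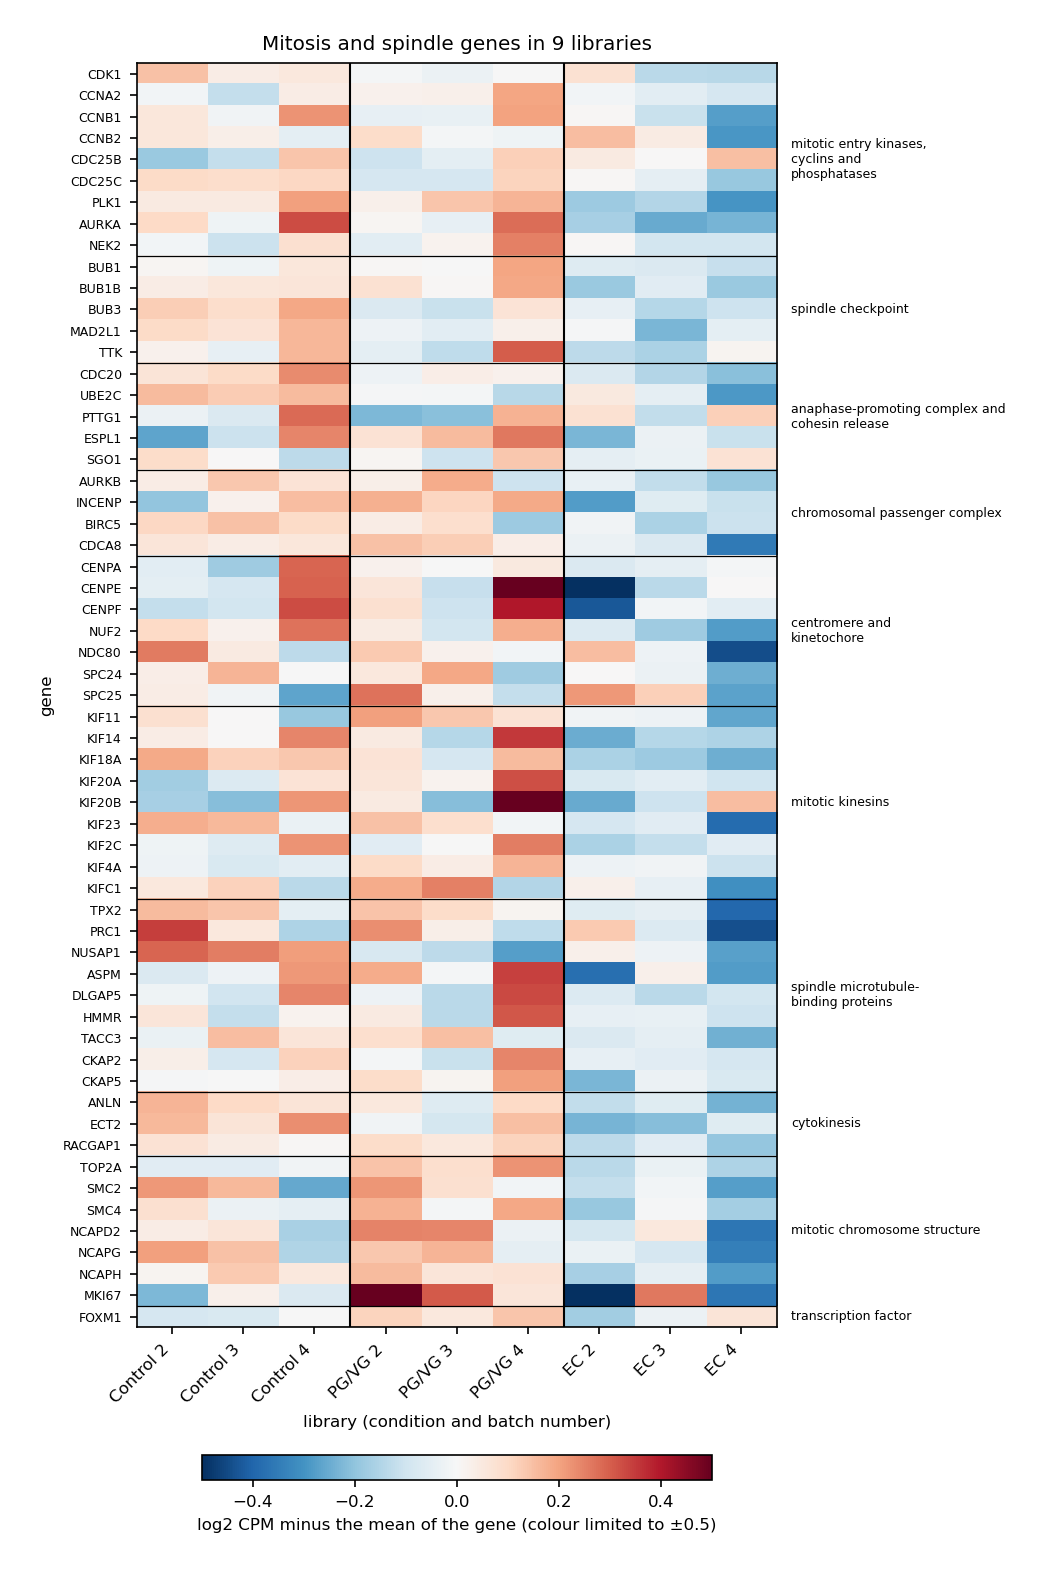
Level of each of the 59 genes (rows, grouped by role) in each of the 9 libraries (columns, condition and batch number), as log2 CPM minus the mean of the gene over the libraries, with the color limited to ±0.5. Most rows are blue in the 3 EC columns, most deeply in EC replicate 4, whose average over the genes is −0.17, whereas the averages of the control and PG/VG columns lie between 0.011 and 0.12.

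Among the 9 genes of mitotic entry, the kinases PLK1 and AURKA fell in EC and the cyclins did not pass the test. AURKA, the Aurora kinase that matures centrosomes and builds the spindle poles, was at 198, 182 and 232 CPM in control replicates 2, 3 and 4, at 187, 180 and 225 CPM in PG/VG and at 165, 155 and 158 CPM in EC. Every EC library was below every control and PG/VG library, and batch 4 was the highest of the untreated and PG/VG libraries. The LFC of AURKA in EC vs. control was −0.35 (SE 0.0741, adjusted p = 0.00296). PLK1, the Polo-like kinase that drives centrosome maturation, kinetochore attachment and cytokinesis, was at 180, 180 and 201 CPM in the control, at 178, 192 and 196 CPM in PG/VG and at 154, 158 and 142 CPM in EC. Its EC values also lay apart from both other conditions, with an LFC of −0.31 (SE 0.0719, adjusted p = 0.00648). CDK1, the kinase at the head of mitosis, was at 202, 188 and 190 CPM in the control and at 192, 166 and 166 CPM in EC, an overlap of the conditions, with an LFC of −0.15 (adjusted p = 0.165). CCNB1 had 306, 290 and 344 CPM in the control and 295, 272 and 243 CPM in EC. These ranges overlapped too, the within-batch differences were −0.05, −0.09 and −0.50 on the log2 scale, and the LFC was −0.21 (adjusted p = 0.102). ComBat-Seq with DESeq2 called both CDK1 and CCNB1 lower. CCNB1 was also called lower by edgeR with the GC and length trend removed or without EC replicate 2. Over all genes, these 3 fits called 1576, 2630 and 893 genes lower. CDC25B, a phosphatase that activates CDK1, had the highest LFC of the 59 genes in EC vs. control, 0.12 (adjusted p = 0.249).

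The spindle checkpoint holds back anaphase until all kinetochores are attached, and the anaphase-promoting complex with its activator CDC20 then marks cyclin B and securin for degradation. BUB3 fell in EC among the 5 checkpoint genes, and CDC20 and UBE2C fell among the 5 genes of the degradation system and of cohesin release. CDC20 was at 169, 173 and 191 CPM in the control, at 159, 165 and 164 CPM in PG/VG and at 154, 146 and 140 CPM in EC. The 3 conditions did not overlap, PG/VG lying between the others, and the LFC in EC vs. control was −0.27 (SE 0.0708, adjusted p = 0.0121). UBE2C stood at 179, 175 and 179 CPM in the control, 159, 159 and 145 CPM in PG/VG and 166, 155 and 131 CPM in EC. Both condensates lay below the control and overlapped each other, the LFC being −0.24 for EC (SE 0.0719, adjusted p = 0.0286) and −0.20 for PG/VG (adjusted p = 0.11). BUB3, which brings checkpoint kinases to the kinetochore, was at 342, 333 and 358 CPM in the control, 298, 290 and 329 CPM in PG/VG and 305, 284 and 292 CPM in EC. It showed the same layout, the LFC being −0.23 for EC (SE 0.0661, adjusted p = 0.0229) and −0.17 for PG/VG (adjusted p = 0.139). BUB1, the kinase that recruits much of the checkpoint, ranged from 130 to 137 CPM in the control and from 122 to 126 CPM in EC, with an LFC of −0.10 (adjusted p = 0.398). Securin (PTTG1), separase (ESPL1) and SGO1 had an LFC of −0.03, −0.08 and 0.01 and did not pass the test.

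None of the 4 genes of the chromosomal passenger complex, which corrects wrong attachments and steers cytokinesis, was among the 14 called in EC vs. control. Of these 4, 3 had an unadjusted p under 0.05, DESeq2 called 1 and ComBat-Seq with DESeq2 called 3. With RLE scaling, or with EC and control fitted alone, edgeR called BIRC5. With the GC and length trend removed it called AURKB, INCENP, BIRC5 and CDCA8, in a fit that called 2630 of 16030 genes lower. The LFC of the 4 genes, in the fit that gave the 14 calls, lay between −0.21 and −0.14. AURKB, the kinase of the complex, was at 95.1, 102 and 97.0 CPM in the control and at 90.3, 85.0 and 81.2 CPM in EC. These groups did not overlap, and the LFC was −0.20 (adjusted p = 0.0836). Of 7 centromere and kinetochore genes, NUF2 fell. NUF2, a subunit of the NDC80 complex that grips microtubules, was at 68.9, 65.2 and 77.4 CPM in the control, 66.0, 60.2 and 72.8 CPM in PG/VG and 61.3, 56.8 and 53.0 CPM in EC. All EC values of NUF2 were below the control, EC replicate 2 lay within the range of PG/VG, and the LFC was −0.30 (SE 0.0824, adjusted p = 0.017). Its partner NDC80 had an LFC of −0.16 (adjusted p = 0.207). SPC25, of the same complex, had 33.7, 32.4 and 27.3 CPM in the control and 38.1, 35.7 and 27.3 CPM in EC, with the second highest LFC of the list at 0.11 (adjusted p = 0.442). CENPF, a large protein of the outer kinetochore, was at 262, 267 and 357 CPM in the control and at 212, 282 and 275 CPM in EC, where the groups overlapped and the LFC was −0.20 (adjusted p = 0.183).

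Of the 9 mitotic kinesins, the motors that move along and reshape spindle microtubules, KIF18A, KIF23 and KIF14 fell. KIF18A, which shortens microtubule plus ends and dampens chromosome swings, was at 56.2, 53.5 and 54.2 CPM in the control, 51.7, 46.6 and 55.1 CPM in PG/VG and 44.2, 43.5 and 41.7 CPM in EC. EC lay below both other conditions without overlap, and KIF18A had within-batch differences of −0.35, −0.30 and −0.38 and an LFC of −0.34 (SE 0.0785, adjusted p = 0.00575). KIF23, the motor of the centralspindlin complex at the division site, was at 238, 234 and 205 CPM in the control, 232, 222 and 207 CPM in PG/VG and 198, 201 and 160 CPM in EC. Here batch 4 was the lowest in every condition, EC did not overlap the others, and the LFC was −0.28 (SE 0.0672, adjusted p = 0.00761). KIF14, another motor of late mitosis, had an LFC of −0.27 (SE 0.081, adjusted p = 0.028). KIF11, the motor that pushes the spindle poles apart, was at 198, 188 and 164 CPM in the control and 185, 184 and 156 CPM in EC, with overlapping groups and an LFC of −0.07 (adjusted p = 0.575).

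Cytokinesis had 2 of its 3 genes among those that fell, and ECT2 had the smallest p of the 59. ECT2, the exchange factor that activates RHOA under the cleavage furrow, was at 253, 236 and 266 CPM in the control, 224, 212 and 251 CPM in PG/VG and 193, 195 and 217 CPM in EC. All EC values of ECT2 were below the control, while EC replicate 4 lay above the lowest PG/VG library, and the LFC was −0.32 (SE 0.0653, adjusted p = 0.00201). ANLN, the anillin scaffold of the contractile ring, was at 553, 528 and 515 CPM in the control, 510, 471 and 527 CPM in PG/VG and 452, 472 and 418 CPM in EC. Control and EC did not overlap for ANLN, and its LFC was −0.25 (SE 0.07, adjusted p = 0.02). RACGAP1, the partner of KIF23, had an LFC of −0.17 (adjusted p = 0.1).

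Among the 9 spindle microtubule-binding proteins all had an LFC below zero and TPX2 alone passed the test. TPX2 was at 586, 577 and 508 CPM in the control, 579, 559 and 530 CPM in PG/VG and 504, 508 and 399 CPM in EC. The highest EC library reached the lowest control library, batch 4 being the lowest in each condition, and the LFC with the batch in the fit was −0.25 (SE 0.0678, adjusted p = 0.017). Among 7 genes of chromosome structure, the condensin subunits NCAPG and NCAPH, which belong to the ring that compacts mitotic chromosomes, fell by 0.22 and 0.23 on the log2 scale (adjusted p = 0.0291 and 0.043). TOP2A, the topoisomerase that untangles sister chromatids, was at 710, 710 and 729 CPM in the control and 672, 722 and 664 CPM in EC, with an LFC of −0.06 (adjusted p = 0.608). MKI67, the Ki-67 coat of mitotic chromosomes, was at 449, 534 and 500 CPM in the control and 368, 630 and 409 CPM in EC. Its EC libraries spread on both sides of the control, its SE of 0.188 was exceeded only by that of NUSAP1, and the LFC was −0.10 (adjusted p = 0.791). FOXM1, the forkhead factor that activates genes of this list, ranged from 236 to 250 CPM in the control and from 222 to 261 CPM in EC, with an LFC of 0.01 (adjusted p = 0.955).

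**Figure D3:**
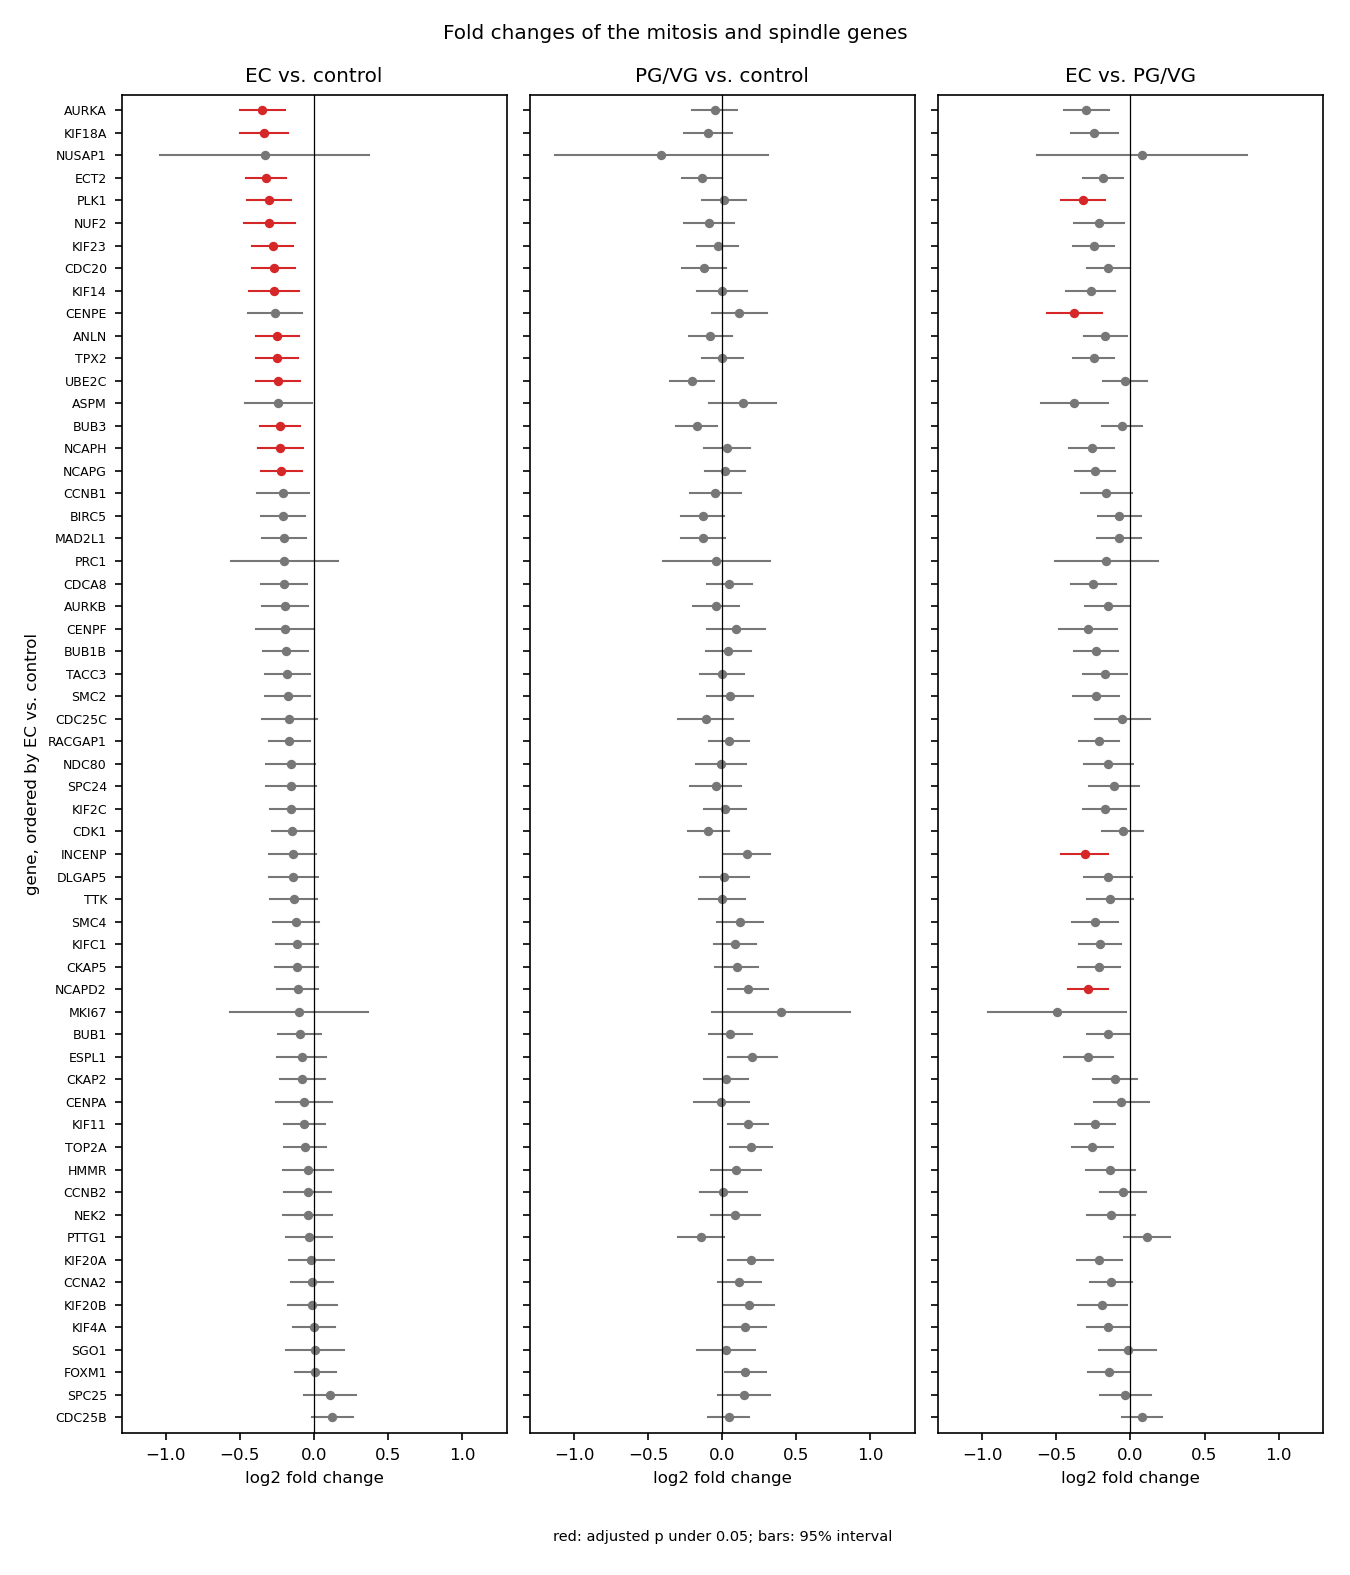
LFC (x axis, log2) of each of the 59 genes (rows, ordered by EC vs. control) in the 3 comparisons, with 95% intervals as bars and red for an adjusted p under 0.05. In EC vs. control and EC vs. PG/VG nearly all points lie left of zero, with 14 and 4 in red, and in PG/VG vs. control they lie on both sides with none in red.

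The calls differed in how much they rested on single libraries. ECT2, AURKA and KIF18A stayed under the threshold with each of the 9 libraries left out in turn, with a largest adjusted p of 0.0201, 0.0398 and 0.0422. KIF23 lost its call without EC replicate 4 (adjusted p = 0.0525), and PLK1, CDC20 and NUF2 lost theirs without EC replicate 4 or without control replicate 4 (largest adjusted p of 0.0666, 0.0995 and 0.145). TPX2 and KIF14 lost theirs without EC replicate 4 or any 1 of the control libraries (largest adjusted p of 0.0949 and 0.183), and ANLN without EC replicate 4, control replicate 2 or control replicate 3 (0.101). BUB3 was lost without any 1 of the control libraries, EC replicate 3 or EC replicate 4 (0.117), and NCAPH without any 1 of the control libraries, EC replicate 2 or EC replicate 4 (0.17). UBE2C was lost without control replicate 3 or 4 or EC replicate 3 or 4 (0.193), and NCAPG without control replicate 2 or 3 or EC replicate 3 or 4 (0.149). The number of calls was 3 without EC replicate 4, 7 without control replicate 3 or without control replicate 4, 8 without control replicate 2 and 4 without batch 4. Over all genes, 2157 were called with every library in the fit. That number was 1291 without EC replicate 4, 1163 without control replicate 3 and 1484 without control replicate 4. It was 1334 without control replicate 2 and 1227 without batch 4. With the batch left out of the model none of the 59 genes was called (15 at an unadjusted p under 0.05), 7 were called with library size as the only scaling, 26 with ComBat-Seq and DESeq2, and 34 after removal of each library's trend with GC content and transcript length, where the median transcript GC was 42.1% in the mitotic genes and 48.6% in all. With the batch left out, 16 of 16030 genes were called, all of them higher. The calls over all genes were 1294 higher and 863 lower with the batch, and 1863 and 486 with library size alone. They were 1523 and 1576 with ComBat-Seq and DESeq2, and 1207 and 2630 after the trend was removed. Where mitotic genes were called in these fits, all were lower.

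In PG/VG vs. control, which shares its control libraries with EC vs. control, no gene of the list passed the test. Across all genes 4.54% did, 2.63% higher and 1.9% lower. Without adjustment 12 of the 59 genes had a p under 0.05, next to 20.1% of all genes. DESeq2 with the same terms also called 0, and ComBat-Seq with DESeq2 called 6, of which 3 were higher and 3 lower. Over all genes, these 2 fits called 721 of 16030 and 1682 of 16100. The LFC was above zero for 35 genes and below zero for 24, with a median of 0.019 against 0.013 over all genes, and the within-batch medians were −0.0041, −0.016 and 0.038. CPM values of the 3 PG/VG libraries were all above the control for KIF4A, TOP2A, MKI67 and FOXM1, and all below it for CDK1, BUB3, MAD2L1, CDC20, UBE2C, BIRC5 and NUSAP1. Such separation was found in 7.79% of all genes in the higher and 6.37% in the lower direction.

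The genes furthest from zero in PG/VG vs. control did not pass the test. MKI67 was at 747, 650 and 548 CPM in PG/VG, each above its control of the same batch, with within-batch differences of 0.73, 0.28 and 0.13 and an LFC of 0.39 (95% interval −0.07 to 0.86, adjusted p = 0.32). ESPL1, the separase that cuts cohesin at anaphase, was at 110, 117 and 126 CPM in PG/VG and at 87.1, 97.3 and 124 CPM in the control, with an LFC of 0.20 (adjusted p = 0.153). TOP2A was at 815, 782 and 862 CPM in PG/VG, above all control libraries, with an LFC of 0.19 (adjusted p = 0.101). NUSAP1 had the lowest LFC, −0.41 (adjusted p = 0.55), on fewer than 21 counts in any library. PLK1, TPX2 and KIF14 had an LFC of 0.01, 0.00062 and −0.0031, the intervals reaching from −0.14 to 0.16 for PLK1 and from −0.14 to 0.14 for TPX2. For CCNB1, AURKB, BUB1, CENPF and KIF11 the LFC was −0.05, −0.04, 0.05, 0.09 and 0.17, and for CDK1, ANLN and FOXM1 it was −0.09, −0.08 and 0.16.

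EC vs. PG/VG compares the flavored nicotine condensate with its carrier. Here 56 of the 59 genes had an LFC below zero, 4 fell with an adjusted p under 0.05 and none rose, where 0.855% of all genes were called in either direction and 0.299% in the lower one. The median LFC was −0.17, against 0.0024 over all genes, with within-batch medians of −0.13, −0.076 and −0.31. Without adjustment, 36 of the 59 genes and 12.9% of all genes had a p under 0.05. In all 3 batches 37 genes were lower and 2 were higher. The CPM of EC lay wholly below PG/VG for 21 genes and above it for none, against 3.37% and 4.54% of all genes.

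The 4 genes called were PLK1, NCAPD2, CENPE and INCENP. This comparison shares its EC libraries with EC vs. control. With PG/VG at 178, 192 and 196 CPM and EC at 154, 158 and 142 CPM, PLK1 had an LFC of −0.32 (SE 0.0716, adjusted p = 0.0331). NCAPD2, a condensin subunit, was at 502, 502 and 414 CPM in PG/VG, at 398, 438 and 330 CPM in EC, with control libraries of 434, 441 and 378 CPM. PG/VG was the highest of the conditions in every batch, the groups overlapped through the lower level of batch 4, and the LFC of NCAPD2 was −0.29 (SE 0.0658, adjusted p = 0.0388). CENPE, the kinetochore motor that carries chromosomes to the spindle equator, was at 117, 103 and 163 CPM in PG/VG and 78.5, 102 and 112 CPM in EC. Its within-batch differences of −0.57, −0.02 and −0.54 were uneven, batch 3 showing next to none, and the LFC was −0.38 (SE 0.0883, adjusted p = 0.0454). INCENP, the scaffold of the passenger complex, was at 132, 126 and 133 CPM in PG/VG and 96.1, 112 and 108 CPM in EC. These groups did not overlap, the control libraries at 102, 118 and 130 CPM reached into both, and the LFC was −0.31 (SE 0.0751, adjusted p = 0.0498).

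By role, all 9 kinesins and all 7 chromosome structure genes had an LFC below zero in EC vs. PG/VG, with medians of −0.21 and −0.26, and each of these 16 genes reached an unadjusted p under 0.05. Measured from untreated cells, EC medians of these roles were −0.117 and −0.122, nearer to zero. Carrier medians lay above zero, at 0.086 for the kinesins (6 of 9 genes above) and 0.12 for chromosome structure (7 of 7). No gene of either role was called in PG/VG vs. control. The EC vs. PG/VG medians therefore do not measure a fall from the untreated level alone. MKI67 had the lowest LFC of the list in EC vs. PG/VG, −0.50 (95% interval −0.96 to −0.03, adjusted p = 0.359), with within-batch differences of −1.02, −0.05 and −0.42. TOP2A and KIF11, close to zero in EC vs. control, had an LFC of −0.26 and −0.24 (adjusted p = 0.0728 and 0.0917). The highest values were those of PTTG1, at 0.11, and CDC25B, at 0.08 (adjusted p = 0.568 and 0.685). TPX2, CENPF and ANLN were at −0.25, −0.29 and −0.17, and CCNB1, AURKB, BUB1, FOXM1 and CDK1 at −0.16, −0.15, −0.15, −0.15 and −0.05, none past the threshold.

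These 4 calls depended on single libraries. None was left without PG/VG replicate 2, without PG/VG replicate 4, without EC replicate 4 or without batch 4, 1 was left without EC replicate 2 and 2 without control replicate 3, while 9 genes were called without EC replicate 3. Over all genes, 4 were called lower without PG/VG replicate 2, 21 without PG/VG replicate 4, 37 without EC replicate 4 and 28 without batch 4. That number was 8 without EC replicate 2, 49 without control replicate 3 and 81 without EC replicate 3. PLK1 lost its call without any 1 of the PG/VG libraries or EC replicate 4 (largest adjusted p of 0.178), and CENPE without PG/VG replicate 2 or 4 or EC replicate 2 or 4 (0.286). INCENP was lost without those same libraries or control replicate 3 (0.495), and NCAPD2 without any 1 of the PG/VG libraries, EC replicate 2 or 4 or control replicate 3 (0.261). The count was 0 without the batch in the model (16 at an unadjusted p under 0.05) and with library size as the only scaling, 2 in thinned counts, 9 with EC and PG/VG fitted alone, 11 with DESeq2, 12 without the count filter, 24 with ComBat-Seq and DESeq2, and 32 after removal of the GC and length trend, all lower. Over all genes, 48 of 16030 were called lower in the fit that gave the 4 calls, 0 without the batch in the model and 31 with library size alone. In thinned counts it was 42 of 15392. The same direction had 121 of 15818 with EC and PG/VG alone and 78 of 16030 with DESeq2. It had 144 of 35230 without the filter, 335 of 16100 with ComBat-Seq and 376 of 16030 with the trend removed.

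**Figure D4:**
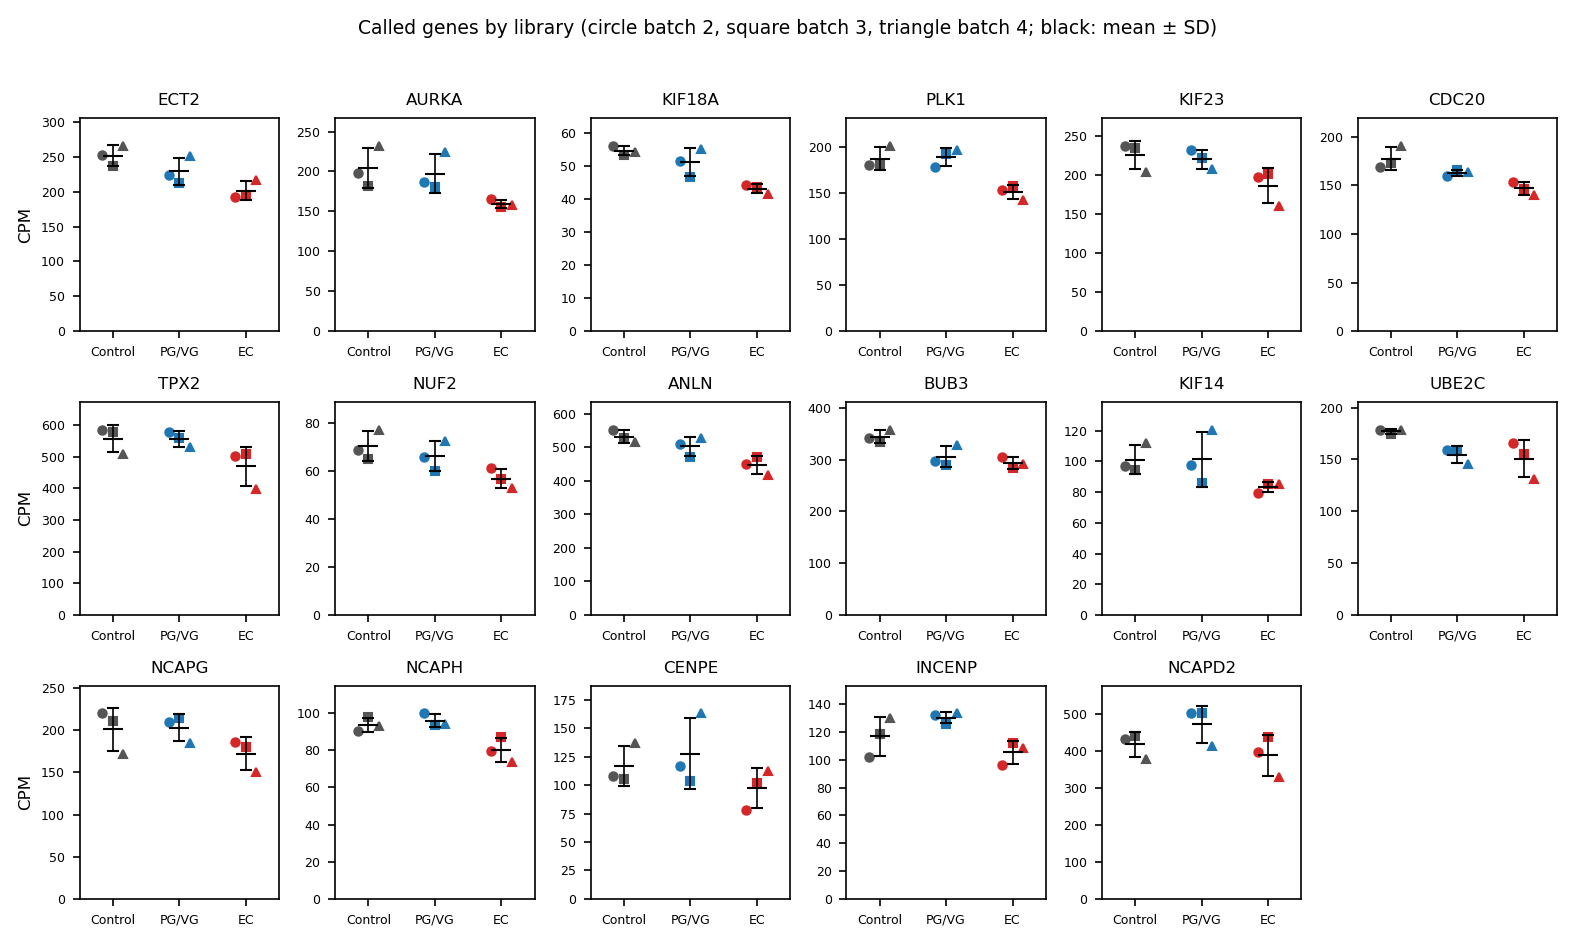
CPM (y axes from 0) of the 17 genes called in EC vs. control or EC vs. PG/VG in each library by condition (x axis), with circles for batch 2, squares for batch 3, triangles for batch 4, and the mean ± SD of 3 libraries in black. ECT2, AURKA, KIF18A and PLK1 have every EC point below every control point, and in TPX2, NCAPG and NCAPD2 the triangles lie below the other points of their condition.

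Batch was the other axis of variation. Between batch 4 and batches 2 and 3, over all conditions, 12 of the 59 genes were higher and 11 lower with an adjusted p under 0.05, or 39.0% in all, near the 40.6% of all genes, of which 20.1% were higher and 20.5% lower. At an unadjusted p under 0.05 they were 28 of 59, next to 48% of all genes. KIF20B, a motor of the late midzone, and CENPE were the highest in batch 4, with an LFC of 0.45 and 0.42 (adjusted p = 1.31e-05 and 0.000137), followed by CENPF at 0.33 and PTTG1 at 0.29. Of the genes called lower, SPC25, KIFC1, NDC80 and NCAPD2 were furthest from zero, with LFC from −0.33 to −0.28, and SMC2 and NCAPG were at −0.27. PRC1 had an LFC of −0.36 and did not pass the test (adjusted p = 0.0659). Measured gene by gene, the sum of squares of log2 CPM between conditions was a median of 49.8% of the total in the mitotic genes, and that between batches 25.9%. Over all genes these shares were 22.4% for the condition and 40.8% for the batch. With 3 groups of 3 libraries, noise alone gives each factor a sizeable share, so the lower shares cannot be read as an effect.

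Other genes of the cell cycle were compared in lists that were set beside the mitotic genes. Of 105 other mitotic genes tested, none rose and 10 (9.52%) fell in EC vs. control, next to 8.07% of all genes called higher and 5.38% called lower, with a median LFC of −0.09, and 1 fell in each of the other comparisons. RHOA, the GTPase of the cleavage furrow and of actin contraction, was at 567, 520 and 480 CPM in the control, 421, 441 and 399 CPM in PG/VG and 500, 420 and 369 CPM in EC. It fell in both condensates, the LFC being −0.29 for EC and −0.31 for PG/VG (adjusted p = 0.00983 and 0.0145). TRIP13, which remodels the checkpoint protein MAD2L1, fell by 0.26 on the log2 scale in EC (adjusted p = 0.0103), the condensin II subunit NCAPG2 fell by 0.26 (adjusted p = 0.0126), and CENPM, of the inner kinetochore, and DEPDC1 fell by 0.33 and 0.31 (adjusted p = 0.0124 and 0.0147). KIF18B, which works with KIF2C at microtubule ends, fell against both the control and PG/VG, with an LFC of −0.31 and −0.35 (adjusted p = 0.0103 and 0.0306). Among these, TRIP13 and KIF18B lost their call against the control without control replicate 4 (adjusted p = 0.0593 and 0.078), NCAPG2 without replicate 4 of the control or of EC (0.0615), DEPDC1 without control replicate 3 or EC replicate 4 (0.133), CENPM without control replicate 4 or EC replicate 3 or 4 (0.0888) and RHOA without EC replicate 3 or 4 (0.0733). In PG/VG, RHOA lost it without control replicate 3 or 4 or PG/VG replicate 2 (0.196), and KIF18B lost its call in EC vs. PG/VG without PG/VG replicate 2 or 3 or EC replicate 2 or 4 (0.342).

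The factors that act on the CHR had a median LFC of −0.02 for EC and 0.06 for PG/VG against the control and of −0.05 between the condensates. None of 19 DREAM and MuvB regulators was called in any of the 3 comparisons by edgeR with TMM scaling, the count filter and the batch, or by DESeq2 with the same terms, with 2, 2 and 0 of them at an unadjusted p under 0.05 in edgeR. In EC vs. control, edgeR called 1 (higher) with library size as the only scaling or without the filter and 7 (all lower) with the GC and length trend removed, and ComBat-Seq with DESeq2 called 1 higher and 1 lower. With the trend removed, 2630 of 16030 genes were called lower. MYBL2 and E2F1 had an LFC of −0.10 and −0.04 in EC vs. control (adjusted p = 0.428 and 0.773). Of 42 S phase genes, 3 (7.14%) were called in EC vs. control, fewer than the 13.5% of all genes. The helicase genes CDC45 and MCM7 fell by 0.28 and 0.23 on the log2 scale in EC (adjusted p = 0.0129 and 0.0281), the cyclin gene CCNE1 rose by 0.42 (adjusted p = 0.0161), and the median LFC of the list was −0.043. Between batch 4 and batches 2 and 3, 32 of the 42 S phase genes were lower with an adjusted p under 0.05 and none was higher. Over all genes 20.5% were lower and 20.1% higher at this threshold. By sign alone, 39 of the 42 were below zero and 3 above. Among 13 G1 cyclins and CDK inhibitors, CDKN1A, which encodes the inhibitor p21, was at 304, 320 and 709 CPM in the control, 288, 296 and 739 CPM in PG/VG and 360, 341 and 1002 CPM in EC. In every batch the EC library was the highest, batch 4 being far above the others in each condition, and CDKN1A rose by 0.28 against the control and by 0.33 against PG/VG (adjusted p = 0.0128 and 0.0314). CCND1, which encodes cyclin D1, fell by 0.22 on the log2 scale in EC (adjusted p = 0.047), and CDKN2B rose by 0.31 in PG/VG (adjusted p = 0.0243). Without control replicate 4 or EC replicate 4 the call of CDKN1A against the control was lost (largest adjusted p = 0.164), and against PG/VG it was lost without EC replicate 2 or 4 or any 1 of the PG/VG libraries (0.207). CDC45 lost its call without replicate 3 of the control or of EC, MCM7 without replicate 3 or 4 of either, and CCNE1 without replicate 2 or 3 of either (largest adjusted p of 0.102, 0.188 and 0.126). CCND1 was lost in 6 of the 9 fits with 1 library left out and CDKN2B in 5, with an adjusted p of up to 0.248 and 0.254.

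**Figure D5:**
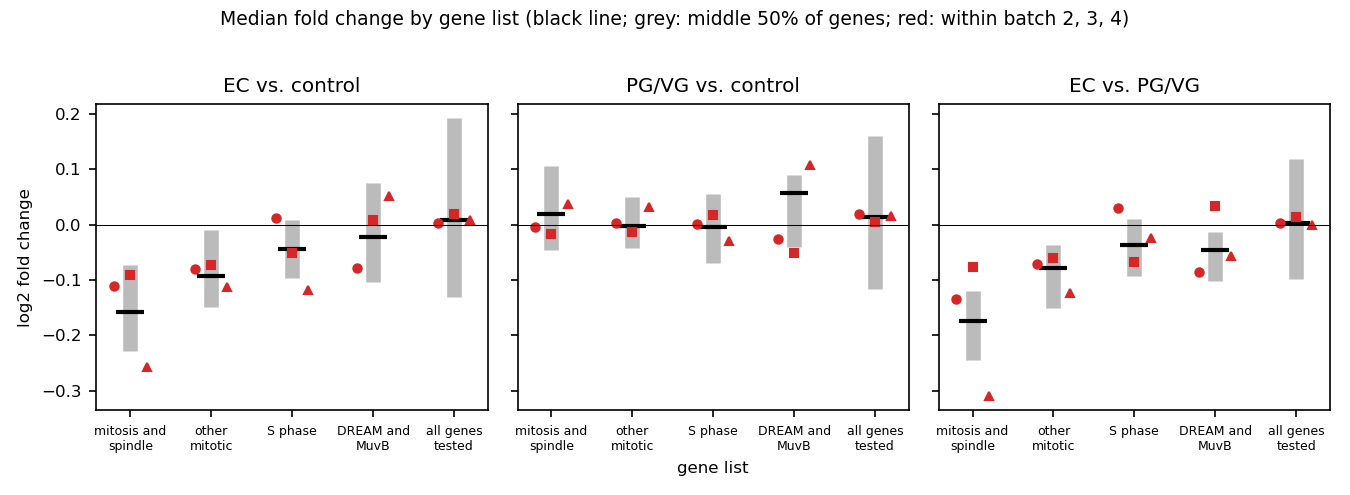
Median LFC (y axis, log2) of the mitosis and spindle genes, 3 other cell cycle lists and all genes tested (x axis) in the 3 comparisons, as black lines, with grey bars for the middle 50% of genes and red symbols for the medians within batches 2 (circle), 3 (square) and 4 (triangle). The mitosis and spindle genes have the lowest medians in EC vs. control, −0.16, and in EC vs. PG/VG, −0.17, and lie near zero, at 0.019, in PG/VG vs. control.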

How the data were processed

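RNA of 9 BEAS-2B libraries was sequenced in 3 conditions of 3. Per the paper's methods and the labels, the authors trimmed reads with fastp, aligned them to GRCh38.p12 with STAR, and counted them on Ensembl exons with featureCounts of Subread 2.0.4, leaving out multi-mapping and multi-overlapping reads, while the strand setting is not given in the sources used here. The deposited values are the authors' raw counts per gene, neither normalized nor adjusted for batch.

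Genes reaching 10 counts in 3 or more libraries were tested with edgeR 4.0.16 (R 4.3.3): TMM scaling, robust dispersions, 1 quasi-likelihood fit of all 9 libraries with condition and batch, and Benjamini-Hochberg adjustment over the 16030 genes with a threshold of 0.05. SE is the absolute LFC over the square root of F, and LFC are not shrunken. CPM use TMM-scaled library sizes and RPKM the exon lengths of GENCODE release 44, whose coordinates are on GRCh38. Within-batch differences are of log2 CPM with a prior count of 2. Total counts ran from 16168260 to 24917838 per library, and the low counts of NUSAP1 and PRC1 limit the precision of their values.

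The genes and lists were chosen with earlier results of these data known. Named were one or more genes per role, in each comparison up to 8 called genes by p that changed alike in all batches, the 2 highest and 2 lowest LFC, the 3 highest and 3 lowest levels, the leading calls of the other lists, and CDKN1A, MYBL2 and E2F1. The labels mark the replicate number as a batch, and same-numbered libraries of different conditions had correlated deviations from the condition mean (r of 0.334 to 0.707 in 9 pairs, others −0.539 to 0.426 in 18), so it served as replicate block. Whether replicates came from separate cultures is stated only as biological replicates. Chi-square per gene between replicates was at least 3.66, so none was a duplicate.

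Alternatives were no block, RLE or library-size scaling, other count filters, DESeq2 1.42.0, ComBat-Seq of sva 3.50.0 with DESeq2, the 2 conditions fitted alone, thinning to 16168260 counts, removal of GC and length trends (mgcv 1.9.3, values for 99.5% of genes), and each library left out. Leaving out batch 4 was added after seeing the data. The steps were tested on simulated data.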

Additional observations from a re-analysis of the deposited data

How the results depend on the processing

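The sign of the median LFC of the mitotic genes in EC vs. control and EC vs. PG/VG did not change in any of the alternatives run, and every call among the 59 genes in these comparisons was lower. Their number did change, as did the number called over all genes. The 14 calls in EC vs. control became 0 without the replicate block, 7 with library size as the only scaling, 26 with ComBat-Seq and DESeq2, 34 with the GC and length trend removed and 4 without batch 4, an alternative chosen after seeing the data, and 3 to 18 with single libraries left out. Over all genes, the 2157 calls in that comparison became 16 without the block, 1227 without batch 4 and 1163 to 2172 with single libraries left out. The 4 calls in EC vs. PG/VG became 0 without the replicate block, with library size alone or without batch 4, 2 in thinned counts, 9 with 2 conditions alone, 11 with DESeq2, 12 without the filter, 24 with ComBat-Seq, 32 with the trend removed, and 0 to 9 with each library left out. Over all genes, the 137 calls in that comparison became 1 without the block, 93 without batch 4 and 33 to 209 with each library left out. In PG/VG vs. control, where 0 were called, the alternatives gave 1 without the filter (MKI67, higher), 1 with 2 conditions alone (UBE2C, lower), 6 with ComBat-Seq, 4 with the trend removed (3 higher, 1 lower), and 0 to 1 with each library left out. Over all genes, 936 of 35230 were called without the filter and 1179 of 15327 with 2 conditions alone. ComBat-Seq called 1682 of 16100, and 1408 of 16030 were called with the trend removed. The median LFC in that comparison was 0.019 and became −0.010 without batch 4 and −0.024 to 0.050 with each library left out. Fits with a library left out held fewer samples, more genes were tested without the filter, and the cause of these changes was not tested. With the block, 23 genes differed by batch, and 16 to 24 did with each library left out.

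Sign changes were found only for genes that did not pass the test. In EC vs. control, FOXM1 (0.0083) was −0.0045 with RLE scaling and with DESeq2, −0.00032 with ComBat-Seq, −0.11 with the trend removed, −0.038 without batch 4, and −0.039 to 0.054 with each library left out. CDC25B was −0.0095 with the trend removed and E2F1 0.017 with library size alone, and with each library left out E2F1 was −0.11 to 0.025 and MKI67 −0.32 to 0.052. In PG/VG vs. control, TPX2 (0.00062) was −0.0023 without the block, −0.011 with RLE scaling, DESeq2, ComBat-Seq, 2 conditions alone and thinned counts, −0.0065 with at least 10 counts in every library, −0.039 with the trend removed, −0.049 without batch 4 and −0.068 to 0.039 with each library left out. With the trend removed, CDK1 was 0.010, PLK1 −0.044, CENPF −0.011, MYBL2 −0.071 and E2F1 −0.018. Without batch 4, AURKB was 0.0048 and BUB1 −0.010. With each library left out, AURKB was −0.10 to 0.0060, BUB1 −0.024 to 0.087, CCNB1 −0.15 to 0.020, CDKN1A −0.13 to 0.0078, MYBL2 −0.030 to 0.080 and PLK1 −0.047 to 0.074.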
